A study of Homo sapiens with 4 samples.

Results

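MALAT1, NEAT1 and KCNQ1OT1 are 3 long non-coding RNAs (lncRNAs) that stay in the nucleus, and they were examined here in m6A immunoprecipitation sequencing (meRIP-seq) of OE-19 cells, an established cell line from an adenocarcinoma of the esophagogastric junction. The members were the peaks of both m6A IP lists whose summit, the base of highest enrichment, lay in the body of 1 of these 3 genes in the GENCODE v44 annotation of hg38. Only 7 of 43925 peaks met this rule, 5 of 24607 in replicate 1 and 2 of 19318 in replicate 2. The series holds 4 samples, 2 immunoprecipitated with an anti-m6A antibody and 2 input samples without antibody, all of OE-19 cells, with no treatment named, in RPMI1640 medium with fetal bovine serum and antibiotics. Each IP sample came with a peak list, and a list of the input samples was not analysed here. The study's text calls the replicates biological. Peak lists hold no expression levels, so the identity of the cells was not checked. With no second condition the design allowed no test between groups, so each value is given per list, beside the same value over all peaks or all lncRNA genes.

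N6-methyladenosine (m6A) is the most common internal modification of mRNA and is also found on lncRNAs. It is written by a complex around METTL3, mostly in the sequence DRACH (A, G or T, then A or G, then A, C, and A, C or T), of which GGAC followed by A, C or T is a frequent form, and an antibody against it pulls down the fragments of RNA that carry it. MALAT1 is an abundant RNA of nuclear speckles, bodies rich in splicing factors, and is a textbook m6A-modified transcript. NEAT1 is the architectural RNA of paraspeckles. It is made as a short transcript and as a long one that runs on through the same 5′ part, and the long one is needed to build the paraspeckle. KCNQ1OT1 is transcribed from the paternal chromosome, antisense to the potassium channel gene KCNQ1, and silences neighbouring imprinted genes in cis.

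All 3 genes lie on chromosome 11. MALAT1 (ENSG00000251562.11) covers 10434 bases on the plus strand at chr11:65497640-65508073, and its canonical transcript is a single exon. NEAT1 (ENSG00000245532.11) covers 22767 bases on the plus strand at chr11:65422774-65445540. Its short transcript ends at base 65426457, after which 19083 bases belong to the long transcript only. KCNQ1OT1 (ENSG00000269821.2) is 102696 bases long and lies on the minus strand at chr11:2597308-2700003, inside KCNQ1.

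The sequences under the peaks are shown first, since the peaks differed in whether GGAC lay at their summits. Each is read 5′ to 3′ on the strand of the gene, with GGAC in capitals. The MALAT1 peak of replicate 2 (chr11:65500191-65500442, 252 bases) held 3 GGAC, all followed by T, and base 178 below is its summit:
MALAT1: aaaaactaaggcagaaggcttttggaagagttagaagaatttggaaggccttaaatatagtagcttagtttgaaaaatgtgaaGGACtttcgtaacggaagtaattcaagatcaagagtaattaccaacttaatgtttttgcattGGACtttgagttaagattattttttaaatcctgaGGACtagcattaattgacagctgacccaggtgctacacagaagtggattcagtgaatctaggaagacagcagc
The KCNQ1OT1 peak near the 5′ end of the gene (chr11:2698736-2698912, minus strand, 177 bases, summit at base 108) and the internal one (chr11:2656940-2657080, minus strand, 141 bases, summit at base 81) held 2 GGAC each:
KCNQ1OT1 5′ peak: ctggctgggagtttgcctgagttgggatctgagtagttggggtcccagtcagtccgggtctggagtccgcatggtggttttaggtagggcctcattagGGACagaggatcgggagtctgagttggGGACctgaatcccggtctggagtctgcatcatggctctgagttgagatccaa
KCNQ1OT1 internal peak: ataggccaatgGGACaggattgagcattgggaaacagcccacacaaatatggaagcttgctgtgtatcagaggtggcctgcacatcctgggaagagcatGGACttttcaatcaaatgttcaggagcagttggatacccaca
The second NEAT1 peak of replicate 1 (chr11:65423659-65423806, 148 bases, summit at base 58) held 1 GGAC:
NEAT1 second peak: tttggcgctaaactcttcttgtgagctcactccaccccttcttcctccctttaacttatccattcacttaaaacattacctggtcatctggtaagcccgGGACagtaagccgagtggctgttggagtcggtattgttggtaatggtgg
The only region found in both lists lay in NEAT1 and held no GGAC. The 300 bases around its replicate 1 summit (chr11:65424326-65424625, summit at base 151) are shown with DRACH in capitals:
NEAT1 shared region: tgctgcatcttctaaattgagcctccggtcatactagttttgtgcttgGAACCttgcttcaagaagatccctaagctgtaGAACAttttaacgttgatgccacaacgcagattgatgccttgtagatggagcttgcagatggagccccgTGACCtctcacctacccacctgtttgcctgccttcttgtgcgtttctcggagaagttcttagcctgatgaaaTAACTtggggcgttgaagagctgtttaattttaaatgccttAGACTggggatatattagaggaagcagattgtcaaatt
None of the 7 peak sequences had a second match in hg38 at a BLAST E value of 1e-05 or less, so no near-identical copy of a peak was found elsewhere in the genome.

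Each of the 3 genes had a peak in at least 1 list. NEAT1 had 3 summits in replicate 1 and 1 in replicate 2, MALAT1 had 0 and 1, and KCNQ1OT1 had 2 and 0. All 7 summits lay in annotated exons of the member gene. The annotation nearly fixes this, since exons make up 100% of MALAT1 and NEAT1 and 90.2% of KCNQ1OT1. Merging the lists left 3 regions on NEAT1, 1 on MALAT1 and 2 on KCNQ1OT1. In replicate 1 the peaks covered 6.01% of NEAT1 and 0.310% of KCNQ1OT1, and in replicate 2 they covered 3.44% of NEAT1 and 2.42% of MALAT1. Among 18866 annotated lncRNA genes, 551 (2.92%) had an exonic summit in both lists, against 33.4% of protein-coding genes. NEAT1 was 1 of these 551, while MALAT1 and KCNQ1OT1 were not.

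**Figure D1:**
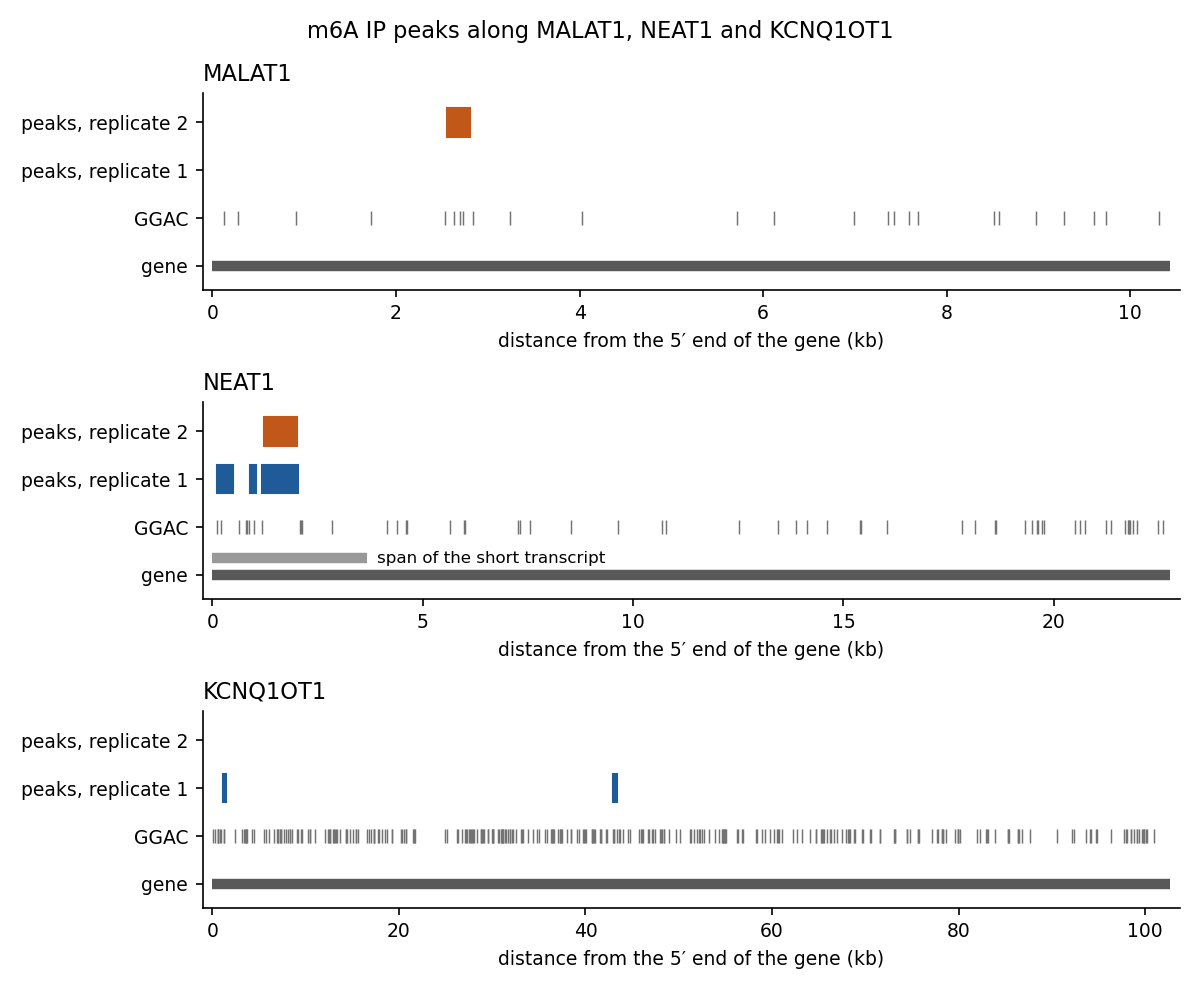
Peaks along the 3 genes. The x axis is the distance from the 5′ end of each gene in kb, blue and orange blocks are peaks of replicates 1 and 2, ticks are GGAC on the gene strand, and the light bar over NEAT1 is the span of its short transcript. The KCNQ1OT1 peaks are drawn wider than to scale so that they can be seen. All NEAT1 peaks sit at the 5′ end, and NEAT1 alone has a peak in both lists.

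Peaks of NEAT1 were confined, in both lists, to the span of the short transcript. All 4 summits fell within the first 1724 nt of the gene. The 3684 bases spanned by the short transcript held 3 summits in replicate 1 and 1 in replicate 2. The 19083 bases of the long transcript only held 0 in each list. The long-only stretch held 46 GGAC (2.41 per kb), and the short span held 12 (3.26 per kb). Why the long-only stretch had no peak was not tested. Because the long transcript runs through nearly all of the short span too, these peaks cannot be assigned to either transcript. The short transcript has 2 exons in the annotation, and its exon borders were not compared with the summits here.

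The strongest NEAT1 region was also the shared one. In replicate 1 it was 859 bases wide (chr11:65423957-65424815) with its summit 1703 nt from the 5′ end, and in replicate 2 it was 783 bases wide (chr11:65423998-65424780) with its summit at 1724 nt. The summits were 21 bases apart. The replicate 2 peak lay wholly inside the replicate 1 peak and covered 91.2% of it. The fold enrichment at the summit, as the authors' peak caller gave it, relates IP to control and was 2.58 in replicate 1 and 2.12 in replicate 2. The −log10 q values were 22.8 and 16.0. The log2 ratio of replicate 1 to replicate 2 was 0.28, beside a median of 0.41 over all 13680 pairs of mutually overlapping peaks, so NEAT1 was lower in replicate 2 like the typical pair.

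The other NEAT1 peaks were found in replicate 1 only. The first (chr11:65422892-65423253, 362 bases) had its summit 382 nt from the 5′ end, with a fold enrichment of 1.75 and a −log10 q of 5.16. The second had its summit at 943 nt, with a fold enrichment of 1.75 and a −log10 q of 5.38. Summits of neighbouring NEAT1 peaks were 561 and 760 bases apart, closer than the median of 1476 bases between neighbouring summits on the 258 lncRNA genes with 2 or more in that list. The nearest replicate 2 summits to these peaks were 1342 and 781 bases away, in both cases the shared NEAT1 region. The second peak also overlapped a small RNA annotated inside NEAT1 on the same strand (ENSG00000278050, chr11:65423638-65423742). The summit lay in that RNA but the peak ran on past its end, and reads were not assigned to either. The shared region overlapped another (ENSG00000277599, chr11:65423960-65424118) in both lists, though its summits lay outside that RNA.

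**Figure D2:**
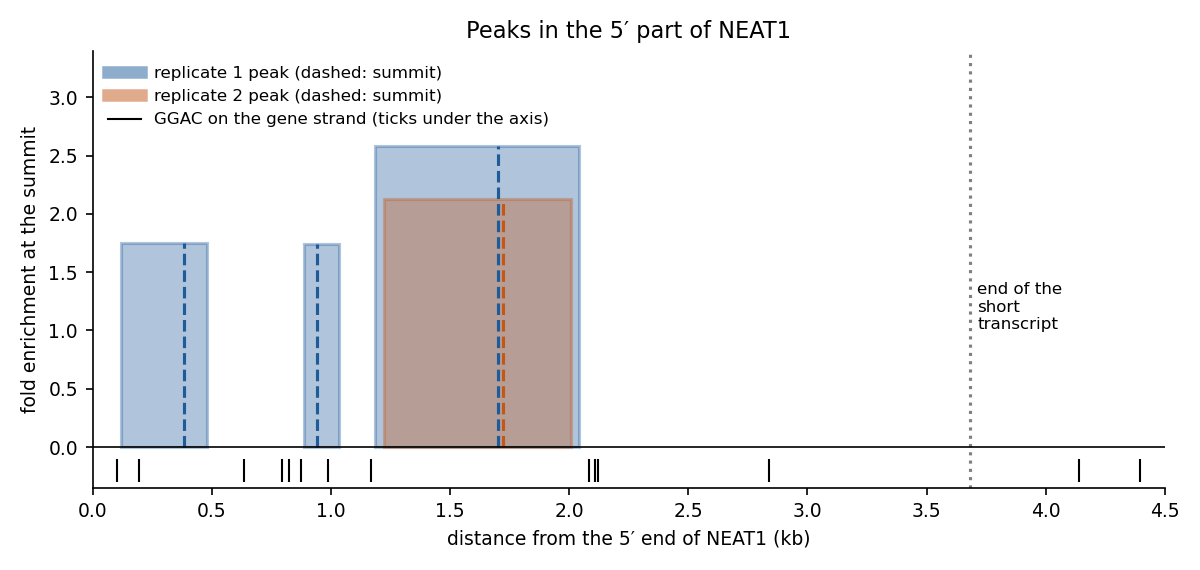
The 5′ part of NEAT1. The x axis is the distance from the 5′ end in kb and the height of each block is the fold enrichment at its summit (dashed line), with replicate 1 in blue and replicate 2 in orange. The summits of the shared region, at 1703 and 1724 nt, nearly coincide, and the GGAC ticks under the axis leave that region free.

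MALAT1 had 1 peak, in replicate 2, with its summit 2729 nt from the 5′ end, at 26.2% of the gene's length. It reached a fold enrichment of 1.41, with a −log10 q of 4.40. Just 5 of the 19318 peaks of that list had a lower fold enrichment, and none of the 870 peaks on lncRNA exons did. The summit also lay in an exon of TALAM1, the antisense partner of MALAT1, and since the lists carry no strand, the 2 cannot be told apart. Replicate 1 had no peak on MALAT1.

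KCNQ1OT1 had 2 peaks in replicate 1 and both were narrow. The 5′ peak had its summit 1199 nt from the 5′ end of the gene, with a fold enrichment of 5.65 and a −log10 q of 6.65. The internal peak lay 41805 bases further on, 43004 nt from the 5′ end, with a fold enrichment of 8.80 and a −log10 q of 12.0. Both summits fell in introns of KCNQ1, the 5′ peak in intron 11 and the internal peak in intron 10 of its canonical transcript, and their nearest KCNQ1 exons were 36724 and 4961 bases away. Unspliced KCNQ1 and KCNQ1OT1 therefore cannot be told apart at these sites without strand. The nearest replicate 2 summit to both was the same one, 107516 and 65711 bases away, in KCNQ1 outside KCNQ1OT1.

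Most member peaks were found in 1 list only. Of the 5 member peaks of replicate 1, 1 overlapped a replicate 2 peak, where 56.7% of all replicate 1 peaks did. Of the 2 member peaks of replicate 2, 1 overlapped a replicate 1 peak, where 74.6% of all replicate 2 peaks did. With 5 and 2 peaks these counts are descriptions only.

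The fold enrichments of KCNQ1OT1 were higher than those of NEAT1 and MALAT1. KCNQ1OT1, with 5.65 and 8.80, stood above the replicate 1 median of 5.27 over all peaks, and 20452 of the 24607 peaks were below the internal one. Among the 1285 peaks on lncRNA exons in that list, with a median of 5.98, the 5′ peak was below the median with 555 under it, and the internal peak had 1022 under it. NEAT1 and MALAT1, with 1.41 to 2.58, stood far below the medians of 5.27 and 5.09. The NEAT1 second and first peaks were the lowest and the next lowest of the same 1285 peaks. The shared NEAT1 region had 12 such peaks below it in replicate 1 and 5 in replicate 2. Among the 551 lncRNA genes with a summit in both lists, the geometric mean of the highest fold enrichment was 2.34 for NEAT1 and the median over genes was 6.76. Only 1 of the 551 was lower, NORAD, a cytoplasmic lncRNA that sequesters PUMILIO proteins, at 2.21.

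**Figure D3:**
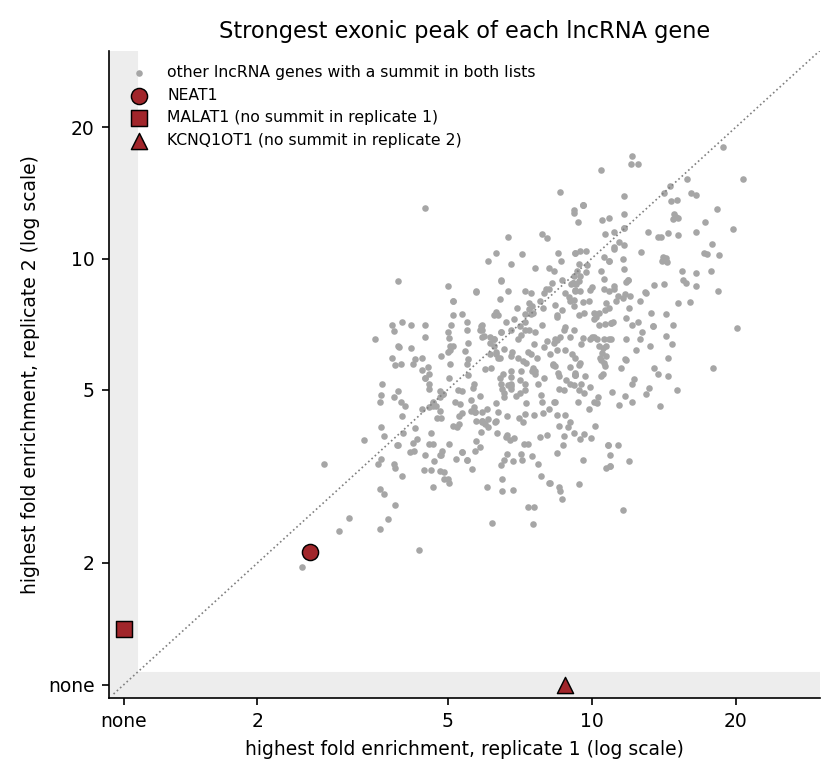
The strongest exonic peak of each lncRNA gene. Axes are its fold enrichment in replicate 1 (x) and replicate 2 (y), both on log scales, with a gene that has no summit in a list placed in the grey band. NEAT1, at 2.58 and 2.12, sits at the low end of the cloud of genes found in both lists. MALAT1 (1.41) and KCNQ1OT1 (8.80) lie in the bands.

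A low fold enrichment did not go with few fragments here. From the fold enrichment and p of a peak, the number of IP fragments over the summit and the control level could be rebuilt, since the caller defines both values from them. At the MALAT1 summit 275 IP fragments (256 after the caller's scaling to the smaller library) stood against a control level of 181. Both were the highest of any peak of replicate 2 with a single solution. The shared NEAT1 region had 201 IP fragments (167 scaled) against 64.0 in replicate 1, and 195 (182 scaled) against 85.0 in replicate 2. The first and second NEAT1 peaks had 138 and 144 IP fragments against control levels of 65.0 and 68.0. The median peak had 35 IP fragments against 4 in replicate 1 and 31 against 4.94 in replicate 2.

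KCNQ1OT1 was at the other end. Its 5′ peak had 19 IP fragments (15.8 scaled) against a control level of 1.97, and its internal peak had 20 (16.6 scaled) against 1.00. These were fewer IP fragments than in 18312 and 17870 other replicate 1 peaks, so the 2 highest fold enrichments among the members rested on the fewest fragments. For peaks whose control level was a whole number of fragments, an exact 95% Clopper-Pearson interval was computed for the scaled ratio of IP to control, without the pseudocount of 1 that the caller adds to each. The ratio was 2.61 (1.96 to 3.51) and 2.14 (1.65 to 2.79) for the shared NEAT1 region in replicates 1 and 2, so the intervals of the replicates overlapped. It was 1.76 (1.30 to 2.40) for the first NEAT1 peak and 1.42 (1.17 to 1.72) for MALAT1. A ratio above 1 is what put a peak in the list, so these intervals show the precision only. For the internal KCNQ1OT1 peak it was 16.6, with an interval from 2.65 to 688, since the control was a single fragment. The intervals cover counting error only.

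**Figure D4:**
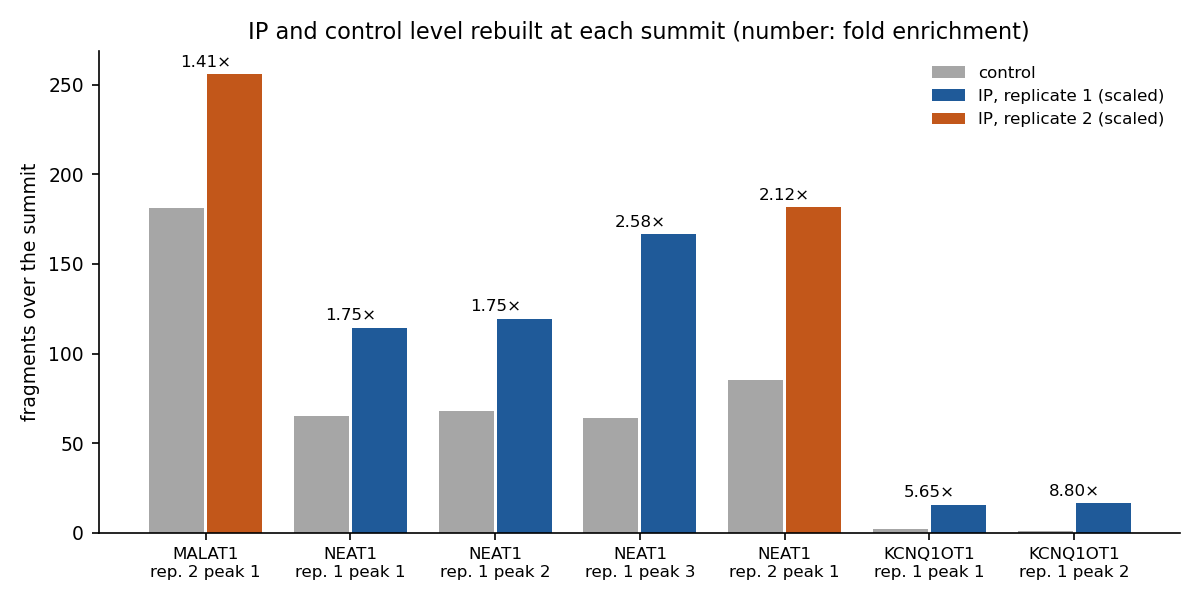
IP and control at each member summit. Bars give fragments over the summit, grey for the control and blue or orange for the scaled IP of replicate 1 or 2, and the number above each pair is the caller's fold enrichment. The bars run from 256 against 181 fragments at MALAT1 to 16.6 against 1.00 at the internal KCNQ1OT1 peak.

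Across both lists the fold enrichment fell as the control level rose. In replicate 1 its median was 6.24 in the 6521 peaks with a control level under 2 and 2.04 in the 208 peaks between 50 and 100, none of which passed 3.32. In replicate 2 the medians were 5.71 and 2.24, and 1.63 in the 56 peaks at 100 or more. Fold enrichment and control level are computed from the same numbers, so this is a description of the lists. Against peaks of like control level the shared NEAT1 region was above the median in replicate 1 and below it in replicate 2. The other NEAT1 peaks stayed low. Whether the control level accounts for the low fold enrichments of NEAT1 and MALAT1 was not tested. In replicate 1 the shared NEAT1 region was above 160 of the 208 peaks between 50 and 100, while the first and second NEAT1 peaks were above 34 and 33 of them. In replicate 2 the shared region was above 176 of 399, and MALAT1 was above 5 of the 56 peaks at 100 or more. The MALAT1 control level was the highest of that open-ended group, so its rank there is not one among peaks of like control level. KCNQ1OT1 was above 2494 of the 6521 replicate 1 peaks under 2 at its 5′ peak, which is below their median. At its internal peak it was above 5036 of them.

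Peaks of lncRNAs at such control levels were few. At a control level of 50 or more there were 222 peaks in replicate 1, of which 4 lay on lncRNA exons, 3 of NEAT1 and 1 of NORAD. In replicate 2 there were 455, of which 5 lay on lncRNA exons, those of MALAT1, NEAT1, NORAD, LINC00511 and IGFL2-AS1. The peaks that matched the shared NEAT1 region, with a fold enrichment no higher and a −log10 q no lower, were 2 in replicate 1, on MUC5B, which encodes a gel-forming mucin, and on NORAD. In replicate 2 there were 6, including peaks on MUC5B, VEGFA, which encodes a growth factor for blood vessels, and LGALS3BP, which encodes a secreted glycoprotein. No other replicate 2 peak paired a fold enrichment as low as that of MALAT1 with a q as small. This follows from its having the most fragments, since fold enrichment and q are computed from the same numbers.

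**Figure D5:**
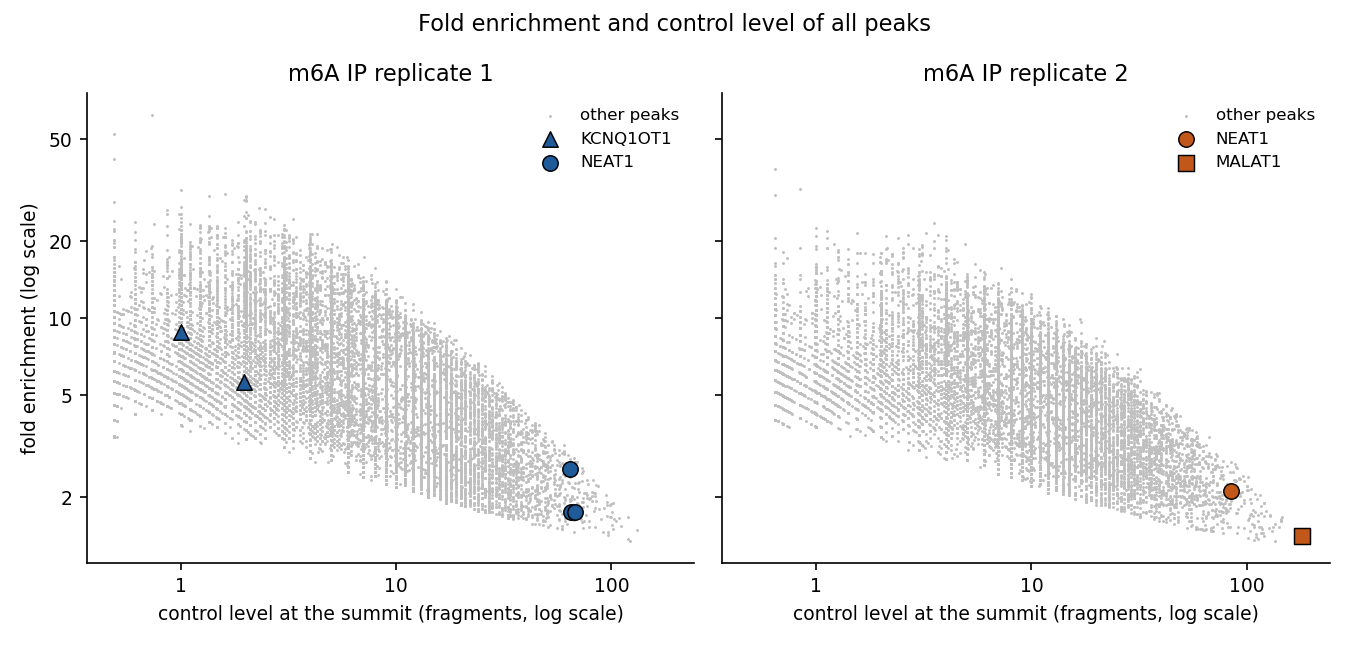
Fold enrichment (y) against control level at the summit (x), both on log scales, for all peaks with a single solution. Grey points are other peaks and coloured symbols the members, with replicate 1 on the left and replicate 2 on the right. NEAT1 and MALAT1 lie at the high-control, low-fold end, and KCNQ1OT1 lies among peaks with a control level under 2.

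Some member summits held GGAC and others did not. With so few peaks this is a description only, and neither case is unusual beside the shares over all exonic summits given next. GGAC was searched on the gene strand in the 50 nt on each side of the summit, where 49.7% of exonic summits in replicate 1 and 51.5% in replicate 2 held it. It was present at both KCNQ1OT1 summits, at the MALAT1 summit and at the second NEAT1 summit, and absent at the first NEAT1 summit and at both summits of the shared region. The nearest GGAC to the MALAT1 summit had its A 4 nt downstream. At the KCNQ1OT1 summits the A of the nearest GGAC was 7 nt upstream and 21 nt downstream, and at the second NEAT1 summit it was 44 nt downstream. For the shared NEAT1 region the nearest GGAC was 381 nt and 360 nt downstream of the summits, outside both peaks. The other strand was also read, since the lists carry none. There GGAC appears as GTCC. The 5′ KCNQ1OT1 peak held 3 GTCC, on the strand of KCNQ1, beside its 2 GGAC. The internal KCNQ1OT1 peak and the MALAT1 peak held 0 GTCC.

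The wider motif DRACH lay within 50 nt of 85.7% of exonic summits in replicate 1 and 88.9% in replicate 2. It was found at 6 of the 7 member summits. In the shared NEAT1 region the nearest was TGACC, with its A 1 nt downstream of the replicate 1 summit and 20 nt upstream of the replicate 2 summit, and it was the only DRACH within 50 nt of either. The 783 bases common to both peaks held 6 DRACH, and 3 GTCC, which is GGAC on the other strand. The first NEAT1 peak had its nearest DRACH 84 nt upstream of the summit and was the most GC-rich of the 7, at 64.4%. MALAT1 was the least, at 36.1%.

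Most GGAC of these RNAs lay outside peaks. MALAT1 held 25 GGAC (2.40 per kb), of which 3 were under its peak. NEAT1 held 58 (2.55 per kb), of which 2 were under a peak. KCNQ1OT1 held 309 (3.01 per kb), of which 4 were under a peak. Over the exons of all lncRNA genes the density was 3.19 per kb. Under the peaks it was 11.9 per kb for MALAT1 and 12.6 per kb for KCNQ1OT1, and 1.46 per kb for NEAT1, where it was 2.62 per kb outside. These densities rest on 3, 4 and 2 motifs and count the strand of the member gene only.

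Some other lncRNAs had more and stronger peaks than the members. The 5 genes annotated as lncRNA with the most exonic summits, by the lower count of the lists, were ENSG00000242588 with 8 and 8, LINC00205 and ENSG00000260604 with 6 and 6 each, TNFRSF14-AS1 with 5 and 5, and TTC28-AS1 with 6 and 5. In each list 5 of the ENSG00000242588 summits also lay in exons of other genes. These 5 were picked by their counts. Their highest fold enrichments were 13.1 to 17.2 in replicate 1 and 9.89 to 14.7 in replicate 2. NEAT1 reached 2.58 and 2.12, and KCNQ1OT1 reached 8.80 in replicate 1. NEAT1 and KCNQ1OT1 were still among the lncRNA genes with more summits in replicate 1, where the median was 1. Of the 895 genes with any, 46 had more than the 3 of NEAT1 and 115 more than the 2 of KCNQ1OT1. These counts are not adjusted for length. NEAT1 and KCNQ1OT1 hold 22767 and 92625 exonic bases, and had 0.132 and 0.0195 summits per kb of gene in replicate 1. Of 308 other lncRNA genes with at least the exonic length of MALAT1, 59 had a summit in both lists, and of 51 with at least that of NEAT1, 7 did. In replicate 1 alone, 10 of these 51 had a summit. Of 3 with at least the exonic length of KCNQ1OT1, 0 had a summit in either list.

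Of 16 other lncRNAs with nuclear or chromatin roles, or well studied for other reasons, 8 had an exonic summit in both lists, 2 in 1 list and 6 in neither, where 2.92% of all annotated lncRNA genes had one in both. FIRRE, which shapes nuclear architecture, had the highest geometric mean, with fold enrichments of 14.0 and 11.2, though its replicate 1 summit also lay in an exon of another gene. TUG1 is typed as protein-coding by the annotation, so it is neither in the ranking of lncRNA genes above nor in that 2.92%. It had 8 summits in each list, with highest fold enrichments of 13.7 and 10.3. FTX, from the X-inactivation centre, reached 10.6 and 10.1, at summits that also lay in exons of other genes. TALAM1 had 1 exonic summit in replicate 2, which is the MALAT1 peak. MEG3, MIAT, HOTAIR, AIRN, LINC-PINT and H19 had no exonic summit in either list, while in their gene bodies HOTAIR had 1 in replicate 1 and LINC-PINT 1 in replicate 2.

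The mRNAs of paraspeckle proteins had an exonic summit in both lists for 7 of 16 genes, in 1 list for 2 and in neither for 7, beside 33.4% in both lists over all protein-coding genes. CPSF7, a subunit of the cleavage factor that acts in NEAT1 processing, had fold enrichments of 7.56 and 5.66, TARDBP, which encodes the RNA-binding protein TDP-43, had 5.17 and 3.06, and RBM14, a core paraspeckle protein, had 4.29 and 3.51. NONO and PSPC1, which bind NEAT1 directly, had no exonic summit, and SFPQ had 1 in replicate 1 only, at 1.63.

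In the imprinted domain around KCNQ1OT1, 8 of 11 genes had an exonic summit in both lists, 2 in 1 list and 1 in neither. The share over protein-coding genes was the same 33.4%. However, 1 of the 8, SLC22A18AS, is annotated as a lncRNA, and the share over lncRNA genes was 2.92%. ASCL2, a transcription factor, reached 8.47 and 4.49, SLC22A18AS reached 7.25 and 4.39, and TSSC4 reached 5.48 and 4.58. KCNQ1 had 1 exonic summit in each list, at 2.91 and 2.30, and CDKN1C, the cell cycle inhibitor that KCNQ1OT1 silences on the paternal chromosome, had 1 in each at 2.50 and 1.87. CD81 had none.

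Among 10 factors of nuclear speckles and nuclear m6A, 6 had an exonic summit in both lists, 1 in 1 list and 3 in neither, again beside 33.4% of protein-coding genes. WTAP, the METTL3 partner, reached 11.9 and 11.7, METTL16, which methylates a hairpin in the MAT2A mRNA, reached 7.07 and 15.2, and RBM15, which guides the methyltransferase to its targets, reached 7.25 and 6.76. SON, a scaffold of nuclear speckles, had 6 summits in each list. The speckle proteins SRSF1 and SRSF2 and the m6A-switch reader HNRNPC had none.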

How the data were processed

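The m6A IP libraries (2 of the 4 samples) were each given as a narrowPeak list on hg38, made by the authors. The labels name fastp, HISAT2 and MACS2, the study's methods name TopHat2 and MACS2 with default settings, and versions are not given in the sources used here. The labels describe UV-fixed, lysed cells and a directional library kit, whereas the study's methods for m6A immunoprecipitation describe purified, fragmented total RNA, and which of these holds for the libraries was not settled. The deposited columns hold a score (10 times −log10 q), the fold enrichment (a ratio), −log10 p, −log10 q and the offset of the summit. The highest q was 0.0491 and 0.0497. Read totals are not in the lists, so depth is unknown, and a gene without a peak is one that did not pass the caller's threshold. The input samples, 2 of 4, were not analysed here on their own.

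Summits were placed in GENCODE v44 gene bodies and exons, with protein-coding genes taking precedence over lncRNAs for exonic counts. All 44 and 53 sequence names were found in hg38. Peaks were called shared at 1 bp of overlap. Motifs were read on the gene strand within 50 nt of the summit (pysam 0.24.0). IP fragments and control levels were solved from fold = (scaled IP + 1) / (control + 1) and the Poisson p (scipy 1.17.1). The IP scale was 0.830 in replicate 1 and 0.932 in replicate 2. All peaks were rebuilt to within 0.002 of −log10 p, with a single solution in 99.3% and 99.6%, and control levels were whole, within 0.005, in 61.6% and 61.1% of those. That is the form the caller gives when a control library is used, but which sample served is not stated. The solver was tested on simulated data. The simulated peaks did not reach the control levels of MALAT1 or of the shared NEAT1 region in replicate 2. Nor did they include ratios as low as those of MALAT1 and the first and second NEAT1 peaks, so the test does not cover these. Near-identical copies were sought with BLAST 2.17.0. The caller by default keeps 1 read per position and strand, and whether this touched the highest pileups was not tested.

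The members, the gene lists and the rules were chosen with earlier results of these data known. The text names the 3 members, up to 4 genes per list with the highest geometric mean of their best fold enrichment, and the 5 lncRNAs with most summits. Other genes named (NORAD, LINC00511, IGFL2-AS1, MUC5B, VEGFA, LGALS3BP, and list genes outside the first 3) were chosen after their values were seen.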

Additional observations from a re-analysis of the deposited data

How the results depend on the processing

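Other thresholds changed which members kept a peak. At a q of 1e-05 or less MALAT1 had 0 summits in replicate 2, hence 0 with GGAC and 0% of its length covered, while NEAT1 and KCNQ1OT1 kept their counts. At a fold enrichment of 5 or more MALAT1 had 0 summits and 0 with GGAC, and NEAT1 had 0 summits and 0 shared peaks in both replicates and 0 with GGAC in replicate 1, and KCNQ1OT1 kept both peaks. With a window of 25 nt, 0 NEAT1 peaks of replicate 1 had GGAC at the summit, and with DRACH in its place 2 did, and 1 in replicate 2. With 1 list left out, merged regions ranged from 0 to 1 for MALAT1, from 1 to 3 for NEAT1 and from 0 to 2 for KCNQ1OT1. A q of 0.01 or less, the peak midpoint, any overlap with the gene body, overlap of 50% of both peaks, summits within 100 bp and a window of 100 nt moved no count of a member by more than 1.5 times. No paired analysis was possible because no result comes from a test.

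Without strand, reads of MALAT1 and TALAM1, or of KCNQ1OT1 and KCNQ1 introns, cannot be told apart. With 2 lists and 7 peaks no difference was tested. An unlisted stretch says only that the caller's threshold was not passed there, and among peaks with a control level of 50 to 100 the lowest listed fold enrichment was 1.42 in replicate 1 and 1.45 in replicate 2.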
